A study of Mus musculus with 2 samples.

Results

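The hemoglobin and erythroid RNA described here comprised 7 genes of the 32285 in the count matrices: the alpha globins *Hba-a1* and *Hba-a2*, the beta globins *Hbb-bs* and *Hbb-bt*, and *Alas2*, *Bpgm* and *Tent5c*. These genes were chosen from measured values of these libraries, because low-count clusters of endothelial barcodes had been led by hemoglobin genes, so their levels are given as a description. The series consisted of 2 single-cell RNA-seq libraries of CD146-selected mouse liver cells, 1 per genotype, each prepared from the pooled livers of 3 mice. The knockout, named *Maf* LSEC-KO in the study and KO in the labels, combined *Maf* fl/fl with 1 copy of *Clec4g-iCre*, written *Clec4g-iCre* tg/wt. In these mice the promoter of *Clec4g*, a gene of liver sinusoidal endothelial cells (LSECs), drives the Cre that removes floxed *Maf*. The control library, labelled WT, came from *Clec4g-iCre* wt/wt littermates, which in that study carried *Maf* fl/fl or *Maf* fl/wt. Both sexes and more than one age were used in the study as a whole, but which mice went into each library is not given in the sources used here. With 1 library per genotype there was no replicate and no test. Intervals are exact 95% intervals (Poisson for sums, Clopper-Pearson for shares) and cover counting error only.

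Hemoglobin is a tetramer of alpha and beta globin chains that each hold a heme and carry oxygen in red blood cells. Adult mice make the alpha chains from *Hba-a1* and *Hba-a2*, a pair of nearly identical genes, and the beta chains from *Hbb-bs* and *Hbb-bt*. *Alas2* encodes the erythroid form of the first enzyme of heme synthesis. *Bpgm* encodes bisphosphoglycerate mutase, which makes the 2,3-bisphosphoglycerate that lowers the oxygen affinity of hemoglobin. *Tent5c* encodes a poly(A) polymerase of the cytoplasm that is also active in B-lineage cells. Red cells of mammals lose their nucleus, their mitochondria and most of their RNA as they mature, and the youngest of them, the reticulocytes, still hold globin RNA. Liver sinusoids are filled with blood, so red cells are a known companion of liver cell preparations.

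In the GENCODE vM21 annotation of GRCm38, the assembly also called mm10, the alpha genes lie on chromosome 11, with *Hba-a1* (ENSMUSG00000069919) at chr11:32283511-32284465 and *Hba-a2* (ENSMUSG00000069917) at chr11:32296489-32297298, both on the plus strand. The beta genes lie on the minus strand of chromosome 7, with *Hbb-bs* (ENSMUSG00000052305) at chr7:103826534-103828096 and *Hbb-bt* (ENSMUSG00000073940) at chr7:103812524-103813996. Each of the 4 globin genes has 3 exons in its longest annotated transcript. *Alas2* (ENSMUSG00000025270) lies at chrX:150547375-150570638 on the plus strand, *Bpgm* (ENSMUSG00000038871) at chr6:34476207-34505613 on the plus strand, and *Tent5c* (ENSMUSG00000044468) at chr3:100451628-100489324 on the minus strand. The main annotated transcripts of *Hba-a1* and *Hba-a2* were 99.8% identical over 538 aligned positions, and those of *Hbb-bs* and *Hbb-bt* 93.0% over 618. How the authors' counting shared reads that fit both genes of a pair is not given in the sources used here, so the split between *Hba-a1* and *Hba-a2* is uncertain.

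Promoters are shown for the globins and *Alas2* because these genes were found in the same few barcodes. The sequences are the 150 bases before the RefSeq transcription start (GRCm38.p6), 5′ to 3′ on the gene's strand, and capitals mark every match on either strand to the TATA box letters ATATAA, the CCAAT box, the CACCC box or the letters GATAA bound by GATA factors. The intervals are chr11:32283522-32283671 for *Hba-a1*, chr7:103827929-103828078 for *Hbb-bs*, chr7:103813924-103814073 for *Hbb-bt* and chrX:150547267-150547416 for *Alas2*.
*Hba-a1*: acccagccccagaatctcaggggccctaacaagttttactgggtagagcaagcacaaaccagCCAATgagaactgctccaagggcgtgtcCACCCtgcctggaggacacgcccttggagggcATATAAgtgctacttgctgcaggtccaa
*Hbb-bs*: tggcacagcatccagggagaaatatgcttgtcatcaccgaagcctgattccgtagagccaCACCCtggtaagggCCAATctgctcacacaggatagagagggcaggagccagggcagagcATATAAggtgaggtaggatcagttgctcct
*Hbb-bt*: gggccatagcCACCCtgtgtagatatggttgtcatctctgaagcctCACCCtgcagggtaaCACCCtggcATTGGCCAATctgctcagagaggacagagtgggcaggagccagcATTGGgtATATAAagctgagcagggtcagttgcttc
*Alas2*: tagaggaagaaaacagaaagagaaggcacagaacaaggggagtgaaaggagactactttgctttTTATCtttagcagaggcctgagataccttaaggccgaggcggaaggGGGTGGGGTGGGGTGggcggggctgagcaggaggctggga
All 4 globin windows held the TATA box, the CCAAT box and the CACCC box together, as did 0.423% of the 32851 promoters in the RefSeq table. Singly, ATATAA was held by 5.35%, the CCAAT box by 24.5% and the CACCC box by 37.4% of these promoters. The *Hba-a1* and *Hba-a2* windows share a run of 147 bases, while those of *Hbb-bs* and *Hbb-bt* were 72.4% identical, and 2 of the 3 CCAAT matches of *Hbb-bt* lie end to end on opposite strands. The *Alas2* window held GATAA, found in 13.3% of promoters, and 3 CACCC boxes, but neither the TATA nor the CCAAT box. The windows of *Bpgm*, with 1 CCAAT box, and of *Tent5c*, with none of the 4 motifs and 84.7% G and C, are not printed.

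The control library held 5664 barcodes and 47681895 unique molecular identifiers (UMIs, the count of RNA molecules captured at their 3′ end), with 500 to 75713 UMIs per barcode. The KO library held 7091 barcodes and 89872764 UMIs, with 500 to 131078 per barcode. After limits of 1500 UMIs and 750 genes, 4961 and 5423 barcodes were clustered without the 7 genes, and 2751 control and 3790 KO barcodes were endothelial-like by fixed markers (*Pecam1*, *Kdr*, *Stab2* and others). Clusters that carried endothelial genes but had more markers of another cell type among their 10 leading genes were kept out of that class and held 31.9% and 12.1% of the barcodes within the limits. *Maf*, the deleted gene, was at 3738 CPM (counts-per-million, 3713 to 3763) in endothelial-like barcodes of the control library and at 103 CPM (100.1 to 106) in those of the KO library. The total behind CPM leaves out UMIs of mitochondrial genes and of ribosomal proteins. The libraries shared 10 barcode sequences, which together held 1 globin UMI in each library.

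In the control library, *Hbb-bs* had 30854 UMIs, *Hba-a1* 13537, *Hba-a2* 10157 and *Hbb-bt* 5145. The order was the same in the KO library, with 18226, 8109, 5817 and 2818 UMIs. The 4 globins together made up 0.125% of all control UMIs and 0.0389% of all KO UMIs, or 1437 CPM (1425 to 1448) and 499.7 CPM (494 to 505). The other members were far scarcer. *Alas2* had 149 and 72 UMIs, *Bpgm* 538 and 706, and *Tent5c* 135 and 193. At least 1 globin UMI occurred in 5.95% (5.35 to 6.60) of control barcodes and in 8.94% (8.29 to 9.63) of KO barcodes, so more than 9 in 10 barcodes of either library had none.

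These globin UMIs were not spread over the barcodes. Barcodes in which the 4 globins made up at least 10% of all UMIs, called globin-rich here, numbered 7 in the control library and 4 in the KO library. The 7 control barcodes held 98.7% (98.6 to 98.8) of all globin UMIs, and the 4 KO barcodes held 85.6% (85.2 to 85.9). These barcodes held 0.309% and 0.105% of the UMIs of all genes. The limit separated the control barcodes widely, with 22.0% globin UMIs in the lowest barcode inside it and 4.49% in the highest outside. The lowest KO barcode inside held 10.3%, and the next outside 5.13% and 4.47%. At a limit of 5% the KO library had 5 such barcodes with 92.6% of the globin UMIs.

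**Figure D1:**
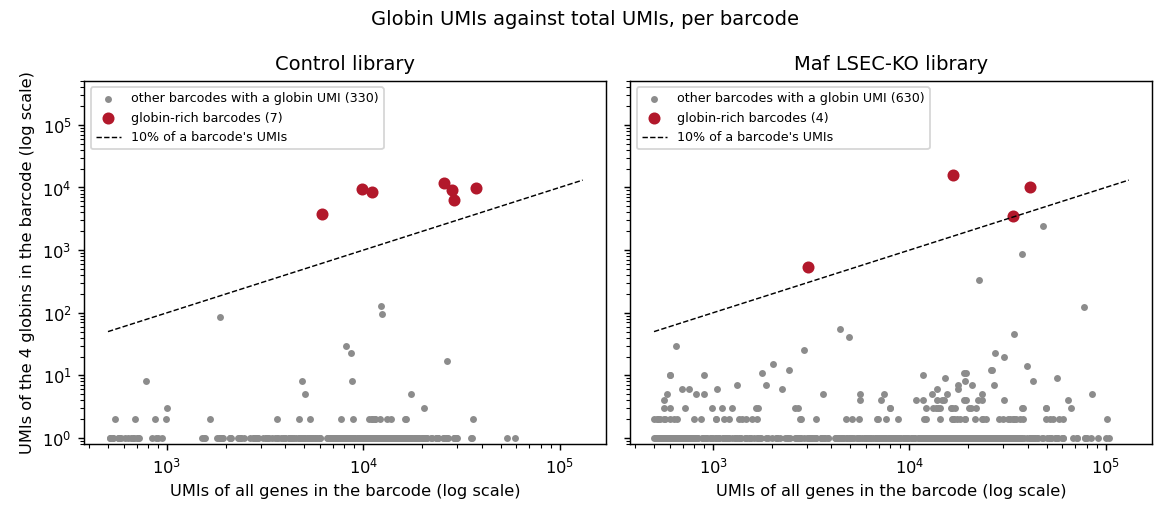
UMIs of the 4 globins against UMIs of all genes, both on log scales, for each barcode with at least 1 globin UMI in the control (left) and KO (right) library. The 7 and 4 globin-rich barcodes lie on or above the dashed line, which marks 10% of a barcode's UMIs, and most of the other 330 and 630 barcodes hold a single globin UMI.

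The globin-rich barcodes were of 2 kinds, and numbers rank them by globin UMIs within their library. In each library 1 barcode held almost nothing but globin. Control barcode 3 had 9795 UMIs, 95.7% of them from globins, 156 detected genes, 2 mitochondrial UMIs and 2 UMIs of 14 endothelial markers. KO barcode 1 had 16697 UMIs, 94.9% from globins, 370 genes, 8 mitochondrial UMIs and 3 UMIs of endothelial markers. Both failed the limit of 750 genes and would not be counted as cells by it, although both exceeded the limit on UMIs.

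The other globin-rich barcodes held a second transcriptome beside the globins. Control barcodes 1, 2, 4 and 6 had 25730, 37479, 28337 and 28835 UMIs, of which 46.6%, 26.0%, 31.9% and 22.0% were globin. They held 203, 653, 371 and 569 UMIs of endothelial markers and 4287 to 5603 genes. Their UMIs outside the globins, 13738 to 27733, lay above the medians of their clusters, which were 10289 and 11878 UMIs. Control barcode 5 had 11021 UMIs with 78.0% globin, 1151 genes and 30 endothelial marker UMIs, and control barcode 7 had 6160 UMIs with 62.3% globin, 1092 genes and 12 endothelial marker UMIs. Without the globins these last 2 held 2427 and 2320 UMIs, against a median of 3317 in their cluster.

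KO barcode 2 had 41116 UMIs with 24.4% globin, 5999 genes and 318 endothelial marker UMIs. KO barcode 3 had 33654 UMIs with 10.3% globin and carried 181 UMIs of endothelial markers, 65 of macrophage markers and 50 of proliferation markers. KO barcode 6, the smallest, had 3037 UMIs with 18.0% globin, 14.9% mitochondrial UMIs and 31 endothelial marker UMIs. UMIs of *Maf*, which played no part in choosing these barcodes, were counted in each. *Maf* had 35, 112, 78 and 88 UMIs in control barcodes 1, 2, 4 and 6, and 4 and 0 in the smaller control barcodes 5 and 7. KO barcodes 2, 3 and 6 had 2, 5 and 0, below the larger control barcodes but overlapping the smaller ones. Barcodes 2, 3 and 6 of the KO library were among the 308 barcodes with the highest doublet scores, and none of the control globin-rich barcodes was among the 225 of its library. Unlike the clustering, these scores were made with the globins included, so they are not independent of the globin counts. Whether these barcodes each stem from a red cell caught with an endothelial cell was not tested.

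**Figure D2:**
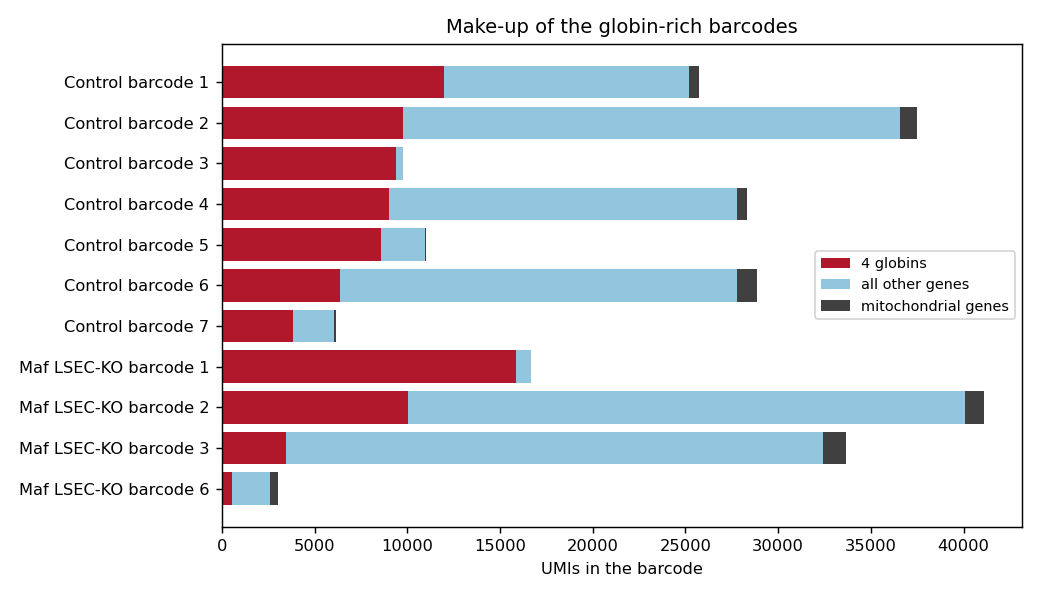
UMIs of the 4 globins (red), of all other genes (blue) and of mitochondrial genes (dark) in each of the 11 globin-rich barcodes, numbered by rank of globin UMIs within their library. Control barcode 3 and KO barcode 1 hold almost only globin UMIs, and the remaining 9 hold 2320 to 31074 UMIs outside the globins.

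Below the limit, 5 control and 11 KO barcodes held at least 20 globin UMIs. In the control library these had 129, 96, 84, 29 and 23 globin UMIs. The largest of the KO library had 2464 (5.13% of 48017 UMIs), 854 (2.29% of 37304) and 338 (1.49% of 22665), with 587, 398 and 286 UMIs of endothelial markers, and the first and the last of these were called doublets. A further barcode with 56 globin UMIs had 522 UMIs of neutrophil markers. The remaining barcodes held few globin UMIs each. Of 325 control barcodes with 1 to 19 globin UMIs, 296 had exactly 1, and of 619 such KO barcodes, 481 had exactly 1. All barcodes under 20 globin UMIs together held 395 globin UMIs in the control and 1032 in the KO library, or 9.55 CPM (8.63 to 10.5) and 14.8 CPM (13.9 to 15.7).

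The 2 chains were present in similar proportion in most globin-rich barcodes. Beta globin made up 59.4% to 65.7% of the globin UMIs in control barcodes 1 to 6 and 57.1% to 64.5% in KO barcodes 1 to 3. It was lower in control barcode 7, at 46.5% (44.9 to 48.1), and in KO barcode 6, at 45.2% (40.9 to 49.4). *Hba-a1* made up 52.6% to 62.2% of the alpha globin UMIs over all 11 barcodes.

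*Hbb-bt* varied most. It supplied 21.1% (20.03 to 22.1) of the beta globin UMIs in control barcode 2, 15.9% (15.1 to 16.8) in barcode 1, 9.93% (9.13 to 10.8) in barcode 5 and 3.25% (2.48 to 4.18) in barcode 7. Among KO barcodes it supplied 21.2% (20.4 to 22.1) in barcode 1, 9.21% (8.52 to 9.94) in barcode 2 and 3.02% (2.31 to 3.87) in barcode 3. Just below the limit, KO barcode 4 had 18 *Hbb-bt* against 1718 *Hbb-bs* UMIs, or 1.04% (0.616 to 1.63). Intervals of single barcodes at the ends of this range did not overlap. The same range, from about 3% to 21%, occurred in both libraries. Among globin-rich barcodes *Alas2* was highest in control barcodes 2, 4 and 6, with 3.69, 3.10 and 2.99 UMIs per 1000 globin UMIs. It was at 1.58 in KO barcode 1 and 1.72 in KO barcode 3, the KO barcodes with a high and a low *Hbb-bt* share, and had no UMI in control barcode 7 or KO barcode 6.

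**Figure D3:**
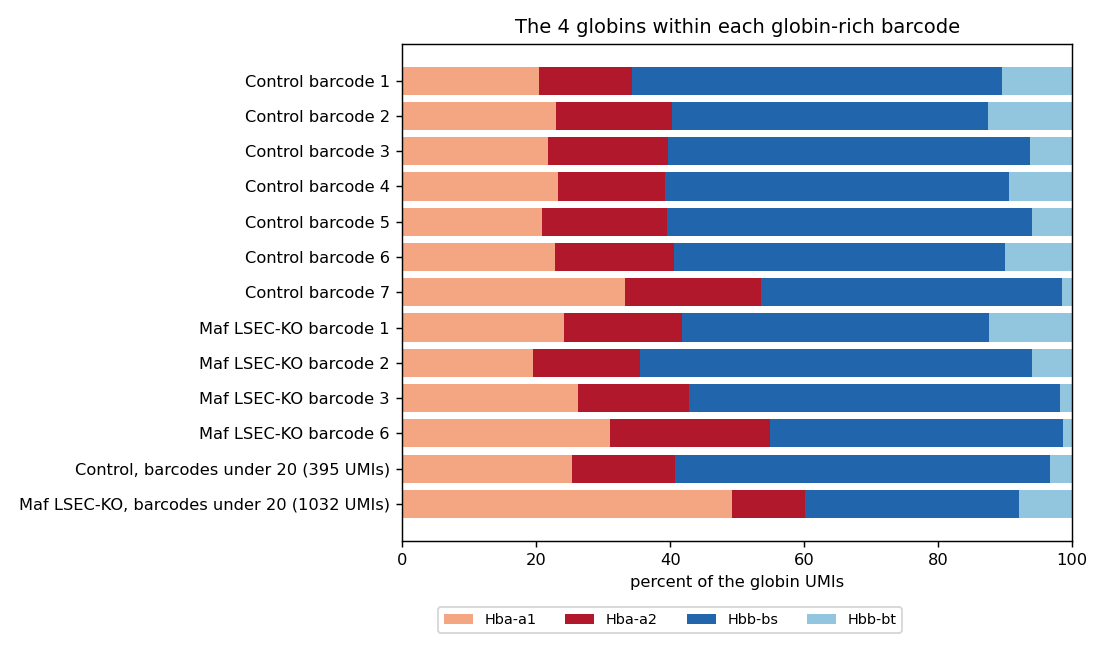
Share of *Hba-a1*, *Hba-a2*, *Hbb-bs* and *Hbb-bt* in the globin UMIs of each globin-rich barcode, and of all barcodes with fewer than 20 globin UMIs summed per library (395 and 1032 UMIs). The *Hbb-bt* share of the beta globin UMIs ranges from 3.25% to 21.1% in the control and from 2.83% to 21.2% in the KO barcodes, and *Hba-a1* takes the largest share in the summed KO barcodes.

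The other 3 members differed in how far they followed the globins, *Alas2* the most and *Bpgm* the least. *Alas2* had 91.3% (85.5 to 95.3) of its control UMIs and 61.1% (48.9 to 72.4) of its KO UMIs in the globin-rich barcodes. By barcode it had 25, 36, 9, 28, 19, 19 and 0 UMIs in control barcodes 1 to 7, and 25, 13, 6 and 0 in KO barcodes 1, 2, 3 and 6. *Tent5c* had 49.6% (40.9 to 58.4) of its control UMIs but 10.9% (6.86 to 16.2) of its KO UMIs there. Its highest class outside them was the monocyte and dendritic-like class of the KO library, with 61.1 CPM (42.1 to 85.8), against 16.1 CPM (11.3 to 22.1) in the macrophage-like and 0.821 CPM (0.589 to 1.11) in the endothelial-like class. *Bpgm* had 12.5% (9.78 to 15.5) and 3.68% (2.42 to 5.35) of its UMIs in globin-rich barcodes. It was spread over endothelial-like barcodes, 9.38% of which had a *Bpgm* UMI in the control and 11.2% in the KO library, although these barcodes differed in median depth (9048 and 14487.5 UMIs). Thinned to 1500 UMIs, the shares were 1.999% (1.51 to 2.59) and 1.37% (1.03 to 1.80).

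Relative to the other UMIs of the same barcodes, with the globins left out of the totals, all 3 genes were higher in globin-rich than in other barcodes. *Alas2* had 136 UMIs in the globin-rich and 13 in all other control barcodes, and 44 and 28 in the KO library. The ratio for *Bpgm* was 76.9 (58.6 to 99.5) in the control and 53.4 (34.7 to 79.0) in the KO library, and that for *Tent5c* was 533 (374 to 758) and 171 (103 to 269). Of all genes with at least 20 UMIs in the globin-rich barcodes, leaving out the globins, 5.04% of 655 in the control and 7.46% of 389 in the KO library were at least 2-fold higher there. The globin share chose these barcodes, but *Alas2*, *Bpgm* and *Tent5c* did not enter that choice.

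**Figure D4:**
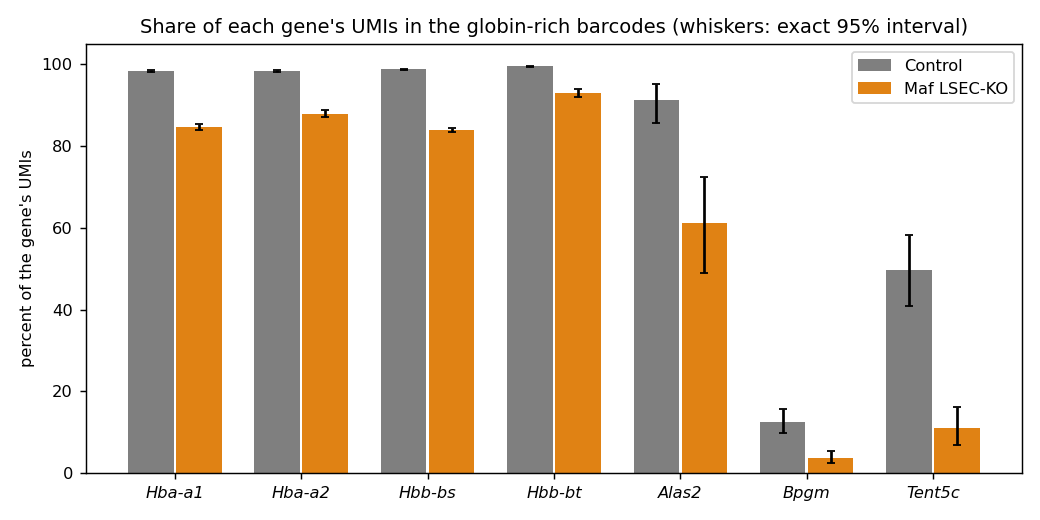
Percent of the UMIs of each gene that lay in the 7 globin-rich barcodes of the control library (grey) and the 4 of the KO library (orange), with exact 95% intervals. The globins lie at 84.0% or more, *Alas2* at 91.3% and 61.1%, and *Bpgm* at 12.5% and 3.68%.

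Genes of erythroid cells outside the 7 were counted from lists of known function. Ratios are again taken with the globins left out of the totals. Of 18 late erythroid genes, 8 had a ratio of globin-rich to other barcodes whose interval lay above 1 in the control library, none had one below 1, and 6 had no UMI in the globin-rich barcodes. In the KO library 4 had an interval above 1, none below, and 8 had no UMI there. Of the 18 genes, 14 had a UMI in any barcode of the control and 13 in any of the KO library. Among all genes with a UMI in the library, an interval above 1 was reached by 1.9% in the control and 2.28% in the KO library. The genes named next were chosen for at least 20 UMIs in globin-rich barcodes, a choice that favours genes that are high there, so their ratios are a description. *Mkrn1*, which encodes an E3 ubiquitin ligase, was 29.3 times (22.3 to 37.9) higher in the globin-rich than in other control barcodes and 8.19 times (4.76 to 13.1) higher in those of the KO library. *Ube2l6*, which encodes the conjugating enzyme of the ubiquitin-like protein ISG15, was 26.4 times (19.6 to 34.8) and 8.33 times (5.08 to 12.9) higher. *Bnip3l*, which acts in the clearance of mitochondria from reticulocytes, was 3.72 times (2.92 to 4.67) higher in the control, and its ratio in the KO library was 1.22 (0.664 to 2.04). *Prdx2*, an abundant red cell peroxidase, was 1.999 times (1.28 to 2.98) higher in the control, with a ratio of 1.18 (0.677 to 1.92) in the KO library. The KO totals outside the globins came mainly from barcodes 2 and 3, with 31074 and 30175 UMIs, against 846 in barcode 1. Barcode 1 held 7 of the 17 *Mkrn1*, 5 of the 20 *Ube2l6*, 7 of the 14 *Bnip3l* and 0 of the 16 *Prdx2* UMIs. Intervals that held 1 were found for 3 further late genes, named after their values were seen: *Blvrb*, at 0.798 (0.365 to 1.52) and 0.724 (0.149 to 2.12), *Xpo7*, at 1.10 (0.358 to 2.58) and 1.48 (0.402 to 3.78), and *Fam210b*, at 1.65 (0.340 to 4.85) and 1.69 (0.204 to 6.10).

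In the list of heme synthesis and iron import, *Fech*, the last enzyme of heme synthesis, was 5.52 times (3.53 to 8.23) and 9.16 times (5.42 to 14.5) higher. *Slc25a37*, the mitochondrial iron importer mitoferrin-1, was 3.31 times (2.25 to 4.71) and 2.89 times (1.06 to 6.29) higher. *Epb41*, a protein of the red cell membrane skeleton, was 9.66 times (6.79 to 13.4) and 5.45 times (3.05 to 9.001) higher. Each of the 7 genes named from these lists had at least 20 UMIs in the globin-rich barcodes of a library, and *Ube2l6* was the only one of them to reach that count in both.

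Markers used to recognise erythroid cells were at or near 0. Of 12 erythroid markers, 11 had no UMI in the globin-rich control barcodes and 10 had none in those of the KO library, where the 12 together had 2 and 5 UMIs. Most of these zeros were not particular to the globin-rich control barcodes, since 7 of the 12 had no UMI in any control barcode. In the KO library 4 of the 12 had no UMI in any barcode. *Gata1* and *Klf1*, which encode erythroid transcription factors, and *Ahsp* and *Hemgn*, which also belong to the late erythroid list, were among those at 0 in the globin-rich barcodes of both libraries, and *Slc4a1*, the red cell anion exchanger, had 1 UMI in those of the KO library. Outside them the 12 markers had 9 UMIs in the control and 168 in the KO library. Embryonic globins were at 0 in the globin-rich barcodes, and of 6 other globin genes only *Hbq1a*, with 2 UMIs, and *Hbq1b*, with 1, were found there, both in the control library. The label of the 7 genes as erythroid thus rested in these libraries on the globins, *Alas2* and some late genes, and not on these markers.

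As sums, with the globins left out of the totals, the 18 late erythroid genes were at 3813 CPM in the globin-rich and 767 CPM in other control barcodes, and at 1980.0 and 861 CPM in the KO library. The 15 red cell membrane genes were at 601 and 97.5 CPM, and at 540.0 and 83.4 CPM. The 12 genes of heme synthesis and iron import were at 1149 and 433 CPM, and at 800.0 and 396 CPM. The 9 erythroid regulators, most of whose UMIs came from *Lmo2*, *Zfpm1*, *Ldb1* and *Tal1*, were at 339 and 378 CPM, a ratio of 0.897 (0.586 to 1.32), in the control and at 700.0 and 391 CPM, a ratio of 1.79 (1.25 to 2.49), in the KO library.

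Of the lists for other sources, those of hepatocytes, neutrophils and heme clearance were lower in the globin-rich than in other barcodes. The hepatocyte list of 12 genes was at 144 CPM against 478 CPM in other control barcodes, a ratio of 0.3002 (0.150 to 0.537), and at a ratio of 0.236 (0.0766 to 0.551) in the KO library. The neutrophil granule list had 0 and 1 UMI in the globin-rich barcodes, and 14804 and 63845 elsewhere. The platelet list had 7 UMIs in the 7 globin-rich control barcodes, all in barcode 1, for 91.4 against 24.2 CPM elsewhere, and 1 UMI in the 4 of the KO library, with 71.7 CPM elsewhere. Genes of hemoglobin and heme clearance, such as the haptoglobin gene *Hp*, *Cd163*, *Hmox1* and the iron exporter gene *Slc40a1*, were at 261 against 488 CPM in the control and at 180.0 against 402 CPM in the KO library.

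The highest cluster levels rested on few barcodes. Control clusters 1, 2 and 3, with 2 globin-rich barcodes each, had the 4 globins at 1364, 7180 and 4011 CPM. Without them the same clusters were at 6.95, 32.5 and 5.77 CPM. KO cluster 0, with 2 globin-rich barcodes, was at 691 CPM and at 152 CPM without them, and KO cluster 2, with 1, at 217 CPM and 19.05 CPM. KO cluster 1, with none, was at 70.3 CPM, and KO barcode 5 held 82.3% of its globin UMIs. A single barcode held 60.2%, 68.8% and 56.9% of the globin UMIs of control clusters 1, 2 and 3, and 74.1% and 91.2% of those of KO clusters 0 and 2. Control cluster 2, led by hepatocyte genes such as *Mup20* and *Apoa1* and the platelet gene *Ppbp*, had a median of 3317 UMIs, and 4.25% of its 588 barcodes had a globin UMI.

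Among barcodes under 20 globin UMIs, the named classes lay between 6.23 and 23.9 CPM. The 4 globins of the control library were at 8.81 CPM (7.66 to 10.1) in endothelial-like, 9.31 CPM (5.09 to 15.6) in macrophage-like and 19.1 CPM (8.23 to 37.5) in B cell-like barcodes. KO barcodes were at 8.59 CPM (7.80 to 9.45) in endothelial-like, 13.0 CPM (8.79 to 18.6) in macrophage-like and 11.6 CPM (3.17 to 29.8) in T and NK cell-like barcodes. With all barcodes of a class included, 1.45% (1.04 to 1.97) of control endothelial-like and 2.29% (0.749 to 5.27) of macrophage-like barcodes had a globin UMI after thinning to 1500 UMIs. In the KO library these shares were 1.48% (1.12 to 1.91) and 2.31% (1.06 to 4.35). Unthinned, the shares were 6.65% and 3.21% in the control and 7.84% and 6.43% in the KO library. Under 20 globin UMIs, control and KO endothelial-like barcodes were at 1.31% and 1.32% thinned and at 6.48% and 7.71% unthinned. Neither class belongs to the erythroid lineage, and the source of these UMIs was not tested.

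Small barcodes stood above these classes. In barcodes below the limits of 1500 UMIs and 750 genes, again under 20 globin UMIs, the globins were at 104 CPM (75.4 to 139) in the control and 273 CPM (241 to 308) in the KO library, from 44 and 261 UMIs in 702 and 1666 barcodes. In these KO barcodes *Hba-a1* made up 86.9% (80.9 to 91.5) of alpha globin UMIs, and beta globin 33.0% (27.3 to 39.0) of globin UMIs. The control values were 66.7% (44.7 to 84.4) and 45.5% (30.4 to 61.2). By depth, and relative to all UMIs, control barcodes were at 67.4 CPM (48.0 to 92.2) at 500 to 1500 UMIs. They were at 21.0 (14.1 to 30.2) at 1500 to 3000 and 14.1 (10.95 to 17.8) at 3000 to 6000. At 6000 to 12000 they were at 6.77 (5.61 to 8.10), at 12000 to 24000 at 5.66 (4.63 to 6.86) and at 24000 and above at 7.47 (5.20 to 10.4). The same classes of the KO library were at 199.95 (176 to 227), 87.4 (71.0 to 106), 19.6 (15.1 to 24.9), 10.5 (8.65 to 12.6), 8.85 (7.87 to 9.91) and 5.43 CPM (4.72 to 6.21). The limit of 20 globin UMIs is a larger share of a small barcode than of a large one. In the KO library it left out 1 barcode at 500 to 1500 UMIs and 8 at 24000 and above. How much of the fall came from the limit was not tested. Control barcodes of the lowest and the highest depth class had 0.0594 and 0.233 globin UMIs each, at median depths of 817 and 28896.5 UMIs. With the barcodes of at least 20 globin UMIs included, the levels did not fall with depth. The control classes of 6000 to 12000 and of at least 24000 UMIs, with 3 and 4 globin-rich barcodes, were then at 1248 and 7731 CPM of all UMIs.

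By mitochondrial share the picture depended on the same few barcodes. Control barcodes with under 2% mitochondrial UMIs were at 21855 CPM of all UMIs with all barcodes included, 3 globin-rich among 205, and at 7.21 (2.90 to 14.8) under 20 globin UMIs. Low depth and a high mitochondrial share went together, so the shares were compared at 3000 to 12000 UMIs. There the control barcodes were at 6.98 (5.69 to 8.48) CPM of all UMIs at 2 to 5% mitochondrial UMIs, 10.4 (8.02 to 13.1) at 5 to 10% and 21.4 (12.7 to 33.9) at 10 to 20%, with median depths of 8611.5, 5943 and 4157 UMIs. The KO barcodes were at 9.03 (7.01 to 11.4), 20.7 (16.5 to 25.7) and 11.5 (6.89 to 17.9). The control levels were in the order of the mitochondrial share, and the highest of the 3 KO classes was the middle one. Across single barcodes, Spearman's rho of globin UMIs with total UMIs was 0.0644 over 5652 control and 0.0290 over 7076 KO barcodes, and that with mitochondrial percent was -0.012 and 0.00041, over barcodes that share their library and are not independent samples.

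The low globin counts of the KO library differed in make-up from its globin-rich barcodes. In barcodes under 20 globin UMIs, *Hba-a1* made up 81.9% (78.7 to 84.9) of the alpha globin UMIs, with 508 *Hba-a1* and 112 *Hba-a2* UMIs, against 57.3% (56.4 to 58.2) in the globin-rich barcodes. Beta globin made up 39.9% (36.9 to 43.0) against 59.9% (59.4 to 60.5). In the control library the low counts did not show this, with *Hba-a1* at 62.1% (54.1 to 69.6) and beta globin at 59.2% (54.2 to 64.1). In the KO endothelial-like barcodes among them, *Hba-a1* made up 76.4% (70.3 to 81.8) of the alpha globin UMIs and beta globin 47.4% (42.6 to 52.3) of all globin UMIs. Of 79 KO barcodes with 3 to 19 globin UMIs, 35 held alpha globin only, 4 beta globin only and 40 both.

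Most of these *Hba-a1* UMIs lay in barcodes with at least 1 UMI of a platelet gene, a grouping chosen after these values were seen. Barcodes with 3 to 9 and with at least 10 such UMIs held 125 and 186 of the 508 *Hba-a1* UMIs. *Itga2b* and *Pf4* had a UMI in 16.2% and 11.2% of KO endothelial-like barcodes, so 1 to 2 such UMIs need not mark platelet RNA. Platelet genes were *Ppbp*, *Pf4*, *Itga2b*, *Gp9* and *Gp1bb*, of which *Ppbp*, *Pf4* and *Gp9* encode platelet chemokines and a receptor subunit. Among KO barcodes under 20 globin UMIs, those with no platelet UMI had an *Hba-a1* UMI in 1.97% (1.62 to 2.37) of 5531. The share was 4.07% (3.03 to 5.34) of 1204 with 1 to 2 platelet UMIs, 25.3% (20.2 to 31.0) of 265 with 3 to 9, and 64.5% (52.7 to 75.1) of 76 with at least 10. Thinned to 500 UMIs per barcode the shares were 0.344%, 0.581%, 7.92% and 26.3%, in the same order. The 76 barcodes held 186 *Hba-a1* UMIs against 3 of *Hba-a2*, 14 of *Hbb-bs* and 15 of *Hbb-bt*. *Hba-a1* thus made up 98.4% (95.4 to 99.7) of the alpha globin UMIs there, and 63.5% (56.4 to 70.2) in barcodes with no platelet UMI. A beta globin UMI was found in 28.9% (19.1 to 40.5) of the 76 and in 3.92% (3.43 to 4.47) of those with none.

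The control library had few such barcodes. In 4 barcodes with at least 10 platelet UMIs it held 14 *Hba-a1* UMIs and none of the other 3 globins. KO barcode 12 had 649 UMIs, 29 of them from *Hba-a1* and 21 from platelet markers, with no UMI of *Hba-a2*, *Hbb-bs* or *Hbb-bt*. By cluster, KO cluster 9, led by *Ppbp*, *Nrgn*, *Fabp1* and *Pf4*, had a globin UMI in 40.0% of its 70 barcodes and was at 257 CPM without any globin-rich barcode. The platelet list as a whole had 5013 UMIs outside the globin-rich barcodes of the KO library and 1004 in the control. Whether these *Hba-a1* UMIs are full globin transcripts cannot be told from 3′ counts.

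**Figure D5:**
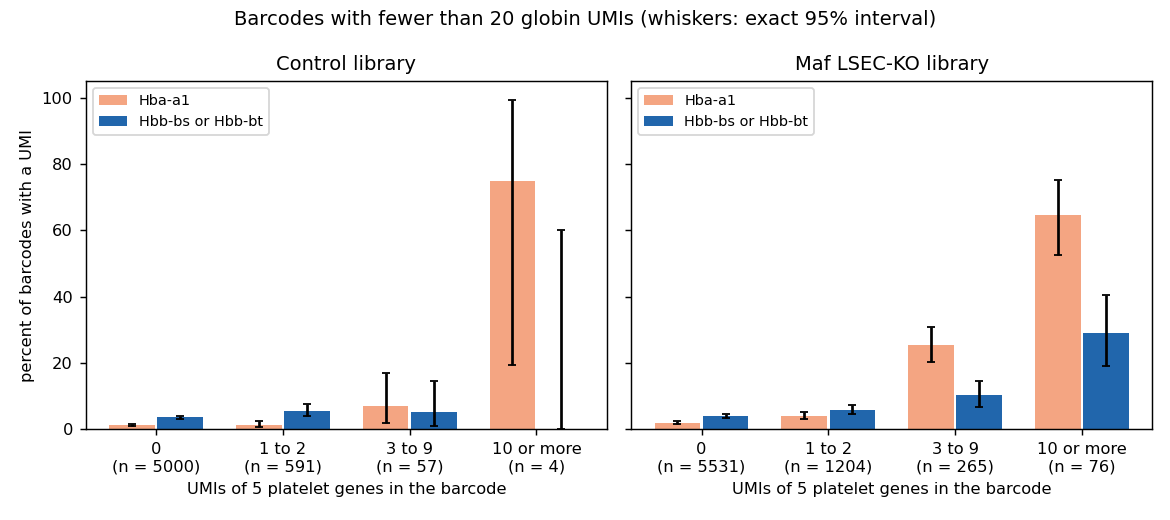
Percent of barcodes with an *Hba-a1* UMI (light) and with an *Hbb-bs* or *Hbb-bt* UMI (blue), by the number of UMIs of 5 platelet genes in the barcode, for barcodes with fewer than 20 globin UMIs. In the KO library the *Hba-a1* share goes from 1.97% to 64.5%, above the beta globin share of 28.9% in the last class, and the control library has 4 barcodes in that class.

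Endothelial-like barcodes of the 2 libraries were then compared. Taken as sums, the 4 globins were at 697 CPM (687 to 708) in the control and 30.3 CPM (28.8 to 31.9) in the KO library, a log2 ratio of -4.52 (-4.60 to -4.45). Each globin was at least 2-fold lower, as were 5.84% of the 4523 genes that reached 50 CPM in 1 library or both, while 9.37% were at least 2-fold higher. This difference rested on control barcodes 2 and 6, which held 9746 and 6349 of the 16506 globin UMIs of the class. Without the globin-rich barcodes the control was at 17.4 CPM (15.8 to 19.2) and the log2 ratio turned to 0.80 (0.64 to 0.96). That value rested on KO barcode 5, with 2.29% globin, which held 854 of the 1515 globin UMIs of the KO class. With no doublets left out, which brings back KO barcodes 2, 3, 4, 6, 7 and 15, the log2 ratio was -0.93. The doublet scores were made with the globins included. Without all barcodes of at least 20 globin UMIs the levels were 8.81 CPM (7.66 to 10.1) and 8.59 CPM (7.80 to 9.45), a log2 ratio of -0.04 (-0.28 to 0.21).

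By gene, in these remaining barcodes, the log2 ratio was 0.59 (0.15 to 1.06) for *Hba-a1*, from 54 and 172 UMIs, and -0.51 (-0.86 to -0.16) for *Hbb-bs*, from 115 and 170 UMIs. The UMIs of the platelet list differed in the same direction as *Hba-a1* (24.2 and 71.7 CPM over all barcodes that were not globin-rich), and their part in this value was not tested. Those levels span all cell classes. Within all endothelial-like barcodes *Pf4* was at 11.4 and 14.3 CPM, *Itga2b* at 7.90 and 15.5 and *Ppbp* at 0.549 and 3.08. *Hba-a2*, at -0.35 (-1.01 to 0.33), and *Hbb-bt*, at 1.16 (-0.04 to 2.58), had intervals that included 0. *Bpgm* was at 12.2 CPM (10.9 to 13.7) and 9.60 CPM (8.76 to 10.5), a log2 ratio of -0.35 (-0.57 to -0.14), and at -0.48 (-0.69 to -0.27) with all endothelial-like barcodes. *Tent5c* was at 0.720 CPM (0.420 to 1.15) and 0.823 CPM (0.591 to 1.12). *Alas2* had 0 UMIs in the control, where 3 counts correspond to 0.127 CPM, and 5 in the KO library. A difference in *Tent5c* was not detectable at these counts, and the *Alas2* counts were too few to compare.

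Of 14 genes of the erythroid lists with at least 50 CPM in endothelial-like barcodes of either library, *Isg20* was at least 2-fold higher in the KO library, and *Blvrb* and *Slc25a37* were at least 2-fold lower, beside the 9.37% and 5.84% of all genes. Their median log2 ratio was -0.01, and that of all 4523 genes was 0.12. *Slc25a37* had 2901 UMIs in the 2751 control and 2157 in the 3790 KO endothelial-like barcodes.

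Genes whose level over 29 classes of both libraries, each of at least 30 barcodes, was most like that of the summed globins were compared as a description. Of the other members, *Alas2* had a Pearson's r of 0.93, *Bpgm* of 0.47 and *Tent5c* of 0.27. Among 12282 other genes the highest were *Rec114* (0.77), *Itih4* (0.69), *Mup11* (0.61), *5830416I19Rik* (0.60), *Gm21887* (0.59), *Pde6a* (0.59), *Orm1* (0.59), *Mroh7* (0.58), *Colec10* (0.57) and *Clasrp* (0.57). Without the globin-rich barcodes 2 of these 10 stayed among the 10 highest, *Itih4* (0.75) and *Orm1* (0.69), both encoding plasma proteins made by hepatocytes, and *Alas2* was at 0.77. The other 8 of the highest 10 were then *Kng1*, *Serpina1b*, *Mup20*, *Serpina3k*, *Serpina1e*, *Hpx*, *Hamp* and *Azgp1*, which hepatocytes also express. The classes come from 2 libraries and differ in depth.

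Depth was lastly compared within the endothelial-like class. Genes whose CPM in barcodes of 1500 to 3000 UMIs was highest relative to barcodes of at least 24000 were *Mup20*, *Slc25a27*, *B430010I23Rik*, *Adgrg6*, *Gm26917*, *E130102H24Rik*, *Gm20045*, *Trf*, *Mttp* and *Gm11713* in the control, at 9.52 to 6.42 times. Those of the KO library were *Gm10800*, *S100a8*, *Igfbp3*, *S100a9*, *Maf*, *Spp1*, *A930037H05Rik*, *Dnase1l3*, *Alb* and *Sparcl1*, at 18.5 to 6.93 times. No globin was among them, and the control ratio of *Hbb-bs* was 0.0225 with the globin-rich barcodes in the deepest class. Under 20 globin UMIs, the globins in this class went from 24.3 (12.6 to 42.5) to 12.8 (8.21 to 19.1) CPM of all UMIs in the control and from 32.2 (18.4 to 52.2) to 4.39 (3.65 to 5.23) in the KO library. This limit is again a larger share of a small barcode than of a large one. With all endothelial-like barcodes the levels went from 194 to 8309 in the control and from 32.2 to 40.9 in the KO library.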

How the data were processed

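Per the labels and the study's methods, the authors made 10x Genomics 3′ v3.1 libraries, aligned reads to mm10 and counted UMIs with Cell Ranger 6.0.2, and analysed the counts with Seurat 5.0.1. The deposited matrices hold counts as whole numbers per gene and barcode, none below 500 UMIs. The study's methods describe subtracting the mean of empty droplets from each cell, and whether the deposited counts precede that step is not given in the sources used here, so low counts could have been lowered. Barcodes under 500 UMIs were not analysed here.

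Libraries were grouped by their genotype label. Barcodes that reached 1500 UMIs and 750 genes were clustered per library with Seurat 5.3.0 (16 and 20 components, resolution 0.3), without the 7 genes, erythroid list genes, mitochondrial and ribosomal protein genes. Scrublet in scanpy 1.11.5 set an automatic limit that marked 0 barcodes in either library, so the caller had not worked by itself, and the highest-scoring 225 and 308 barcodes, 4.53% and 5.67%, were left out after clustering, by expected rate. Scrublet was given the counts of all genes, with the 7 genes included. Endothelial-like clusters had *Pecam1* and 7 or more of the 14 endothelial genes detected in 50% of barcodes or more, none of *Adgre1*, *Clec4f*, *Ptprc*, *Cd52*, *Acta1* and *Arg1*, markers of other cells, in over 50%, and no other type with more markers among the 10 leading genes. Names rest on this rebuilt clustering and may differ from the study's. Thinning drew 1500 UMIs per barcode without replacement. Intervals came from scipy 1.17.1, and the calculations were tested on simulated data. Lists were heme synthesis and iron import, red cell membrane, erythroid regulators, late erythroid, other globins, hemoglobin and heme clearance, hepatocyte, platelet and neutrophil granule. Named genes were the members, list genes with at least 20 UMIs in globin-rich barcodes (some list genes are not reported here), the 10 most correlated over classes, and the 10 with the largest ratio of low to high depth. A rule for the 10 genes highest in globin-rich barcodes applied from 10 such barcodes in a library and named none. Members, lists and rules were chosen with earlier results of these data known. Alternatives tried were other totals, depth and mitochondrial limits, limits of 5%, 20% and 50% for globin-rich barcodes, thinning to 500 and 3000 UMIs, resolution 0.5, and leaving out globin-rich barcodes.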

Additional observations from a re-analysis of the deposited data

How the results depend on the processing

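The log2 ratio of the 4 globins between endothelial-like barcodes (-4.52, KO to control) turned to 0.80 without globin-rich barcodes. It was -0.037 without barcodes of at least 20 globin UMIs, a limit chosen after seeing the data, -0.93 with no doublets left out, -3.26 as a mean over barcodes, -4.70 at 6000 UMIs or more and -4.72 with UMIs of all genes as the total. It was -5.34 at resolution 0.5 and -5.60 over all clusters with endothelial markers, the latter added after seeing the data. The median over barcodes was 0 in both libraries and gave no ratio. Without globin-rich barcodes single genes turned to 0.83 for *Hba-a1*, 0.47 for *Hba-a2*, 0.85 for *Hbb-bs*, 1.23 for *Hbb-bt* and 0.19 for *Tent5c*, and without barcodes of at least 20 globin UMIs *Hba-a1* was at 0.59, *Hbb-bt* at 1.16 and *Tent5c* at 0.19. KO barcode 5 alone held 156 of the 396 *Hba-a1*, 134 of the 234 *Hba-a2*, 506 of the 791 *Hbb-bs* and 58 of the 94 *Hbb-bt* UMIs of the KO class. *Bpgm* stayed between -0.67 and -0.33 in 11 of 11 alternatives. These alternatives differ by construction in the barcodes kept.

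The log2 ratio of globin CPM of all UMIs at 1500 to 3000 UMIs to that at 24000 or more was -6.56 (control) and -2.005 (KO). It was -5.42 and -0.35 in endothelial-like barcodes, 3.45 and 0.20 without globin-rich barcodes, and 1.49 and 4.01 without barcodes of at least 20 globin UMIs. That last limit is a count, and so a larger share of a small barcode than of a large one. The log2 ratio of under 2% to 5 to 10% mitochondrial UMIs went from 10.6 to -0.33 and from 7.34 to 1.45 without barcodes of at least 20 globin UMIs, again added after seeing the data.

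At a limit of 50% globin UMIs, 3 control and 1 KO barcodes held 36.5% and 45.3% of globin UMIs. In the KO library 2 barcodes at 20% held 74.0%, and the limit of 5% gave 92.6%. Without globin-rich barcodes beta globin made up 52.2% and 61.6%, against 60.3% and 60.2%. The share of barcodes with a globin UMI at 1500 UMIs, 1.68% and 2.19%, was 2.35% and 2.90% at 3000 UMIs, 0.260% and 0.525% for at least 2 UMIs, and 0.830% and 2.29% at 500 UMIs. Erythroid list genes at least 2-fold apart numbered 3 of 14 at 50 CPM and 6 of 27 at 10 CPM. Of all genes, 424 were higher and 264 lower among 4523 at 50 CPM, and 1073 and 449 among 9305 at 10 CPM.

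No paired analysis was possible because each genotype had 1 library, and leaving out a library leaves no comparison. Counts of *Alas2* and *Tent5c* are few, which widens their intervals.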
